A study of Mus musculus with 10 samples.

Results

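The genes described here encode 10 collagen chains outside the fibril-forming and basement membrane families, and they were taken by symbol from the 55401 genes of the deposited count table. They are 5 collagen VI chains, Col6a1, Col6a2, Col6a3, Col6a5 and Col6a6, the collagen VIII chains Col8a1 and Col8a2, and the fibril-associated chains Col12a1, Col14a1 and Col16a1. A further collagen VI chain gene, Col6a4, is not among them and had at most 2 counts in any replicate. Of the 10 genes, 9 had over 5 counts in 3 or more of the 10 replicates, the filter used here, and were among the 14815 genes tested, and Col6a5 did not. The genes were selected on their measured levels in naive and stressed mice, so that difference is described below and supports no statement about the family.

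The RNA came from meningeal lymphatic endothelial cells (LECs), sorted as CD45-CD31+PDPN+ cells from the meninges of female C57BL/6 mice (C57BL/6J in the study's methods) 3 months old. Naive mice, which were not stressed, gave 5 replicates, and mice exposed to sub-chronic variable stress (SCVS) for 6 days gave another 5. Each replicate was a pool of 3 to 4 animals, both groups were digested in the presence of actinomycin D, and the RNA of both was amplified before sequencing. The labels name no transgene or Cre line, and neither the labels nor the methods say which replicate belonged to which cohort.

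Collagen VI is a microfibrillar collagen that links cells and basement membranes to the surrounding matrix, and its classic form assembles from the α1, α2 and α3 chains, with α5 and α6 able to take the place of α3. Collagen VIII is a short-chain network collagen of vascular and corneal matrix. Collagens XII, XIV and XVI do not form fibrils of their own but sit on or beside fibrils of other collagens. They and collagen VI are made in quantity by fibroblasts and other stromal cells.

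To show the sequence next to the start of the 3 chains of classic collagen VI and of the leading collagen VIII chain, promoter windows of Col6a1, Col6a2, Col6a3 and Col8a1 are given, each running from 250 bases before to 50 bases after a RefSeq start on the gene's strand (GRCm38.p6). The windows lie at chr10:76725995-76726294, chr10:76623355-76623654, chr1:90843922-90844221 and chr16:57754688-57754987, all on the minus strand. Col6a2 has 2 RefSeq starts, and the window shown is that of the downstream one. The window of the other, chr10:76623581-76623880, held 1 GC box. Capitals mark an AP-1 motif (TGANTCA) or a GC box (GGGCGG or its reverse complement).
Col6a1: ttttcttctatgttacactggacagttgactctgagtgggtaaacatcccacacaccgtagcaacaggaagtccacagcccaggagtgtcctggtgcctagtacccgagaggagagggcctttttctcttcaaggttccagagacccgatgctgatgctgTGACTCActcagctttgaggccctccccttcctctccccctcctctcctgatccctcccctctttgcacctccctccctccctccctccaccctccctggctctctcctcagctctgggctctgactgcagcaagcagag
Col6a2: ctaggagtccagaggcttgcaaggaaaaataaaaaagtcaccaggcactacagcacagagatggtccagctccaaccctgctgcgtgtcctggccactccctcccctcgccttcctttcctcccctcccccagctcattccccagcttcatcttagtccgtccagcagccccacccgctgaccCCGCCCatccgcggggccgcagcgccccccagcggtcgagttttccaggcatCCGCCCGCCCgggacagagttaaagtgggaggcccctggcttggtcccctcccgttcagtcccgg
Col6a3: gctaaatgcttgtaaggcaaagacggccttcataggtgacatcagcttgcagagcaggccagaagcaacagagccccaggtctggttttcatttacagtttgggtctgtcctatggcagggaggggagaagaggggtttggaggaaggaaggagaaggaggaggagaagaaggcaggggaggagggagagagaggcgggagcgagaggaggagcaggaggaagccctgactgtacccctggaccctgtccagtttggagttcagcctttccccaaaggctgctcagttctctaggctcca
Col8a1: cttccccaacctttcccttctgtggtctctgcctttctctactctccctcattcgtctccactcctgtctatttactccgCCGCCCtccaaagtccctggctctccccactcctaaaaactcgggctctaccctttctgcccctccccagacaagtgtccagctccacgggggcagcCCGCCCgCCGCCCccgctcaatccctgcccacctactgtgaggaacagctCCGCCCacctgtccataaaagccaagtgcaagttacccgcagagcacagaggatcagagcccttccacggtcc
The Col6a1 window held 1 AP-1 motif, starting 90 bases before the start site, and such a motif was present in 7.81% of the 32851 promoter windows of the same length. The Col6a2 window shown held 3 GC boxes, of which 2 overlapped, and the Col8a1 window held 4, while 35.7% of all windows held at least 1. TATAAA, found in 13.6% of all windows, and CCAAT, found in 37.4%, were searched on both strands as well, and none of the 4 motifs was found in the Col6a3 window. A window was at hand for 8 of the 10 genes, all but Col12a1 and Col14a1. These matches describe letters only and were not tied to any level below.

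The total count per replicate was between 9984743 and 14094155, so that 3 counts, used here as the floor of detection, corresponded to 0.213 to 0.3005 CPM, the count scaled to a library total of 1000000. Replicates of one group were not closely alike, with correlations of log2(CPM + 1) across genes of 0.485 to 0.702 between naive replicates and 0.611 to 0.693 between SCVS replicates. Naive libraries 1 and 5 stood apart by their markers. Naive 5 had a summed level of 5 pan-endothelial markers of 285 CPM, against 2497 to 5134 CPM in the SCVS replicates, and naive 1 had a summed level of 7 lymphatic markers of 60.8 CPM, against 439 to 3074 CPM in the SCVS replicates. In naive 1 the defining lymphatic genes Prox1 and Pdpn had no count. Naive 5 also had a low lymphatic sum, 185 CPM. Values below are therefore also given without naive 1 and naive 5 where they bear on a result. SCVS 5 was unusual as well and was left out only singly. It had the lowest lymphatic sum of the SCVS replicates, 2 counts of Prox1 and the highest sum of 3 erythroid markers, 4336 CPM.

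Across the 10 chains, the naive replicates contained more collagen VI and XIV transcript than the SCVS replicates, while collagen VIII and XII transcript was nearly as high in the top SCVS replicate as in the top naive one. The summed level of the 5 collagen VI chains was 157 ± 122 CPM in naive replicates and 3.27 ± 3.46 CPM in SCVS replicates (SD, n = 5 each). For collagen VIII the sums were 71.4 ± 96.1 and 56.4 ± 75.6 CPM, and for the fibril-associated chains they were 129 ± 123 and 45.7 ± 61.3 CPM. In bulk RNA of sorted cells, fewer cells of a type and less RNA per cell cannot be told apart.

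**Figure D1:**
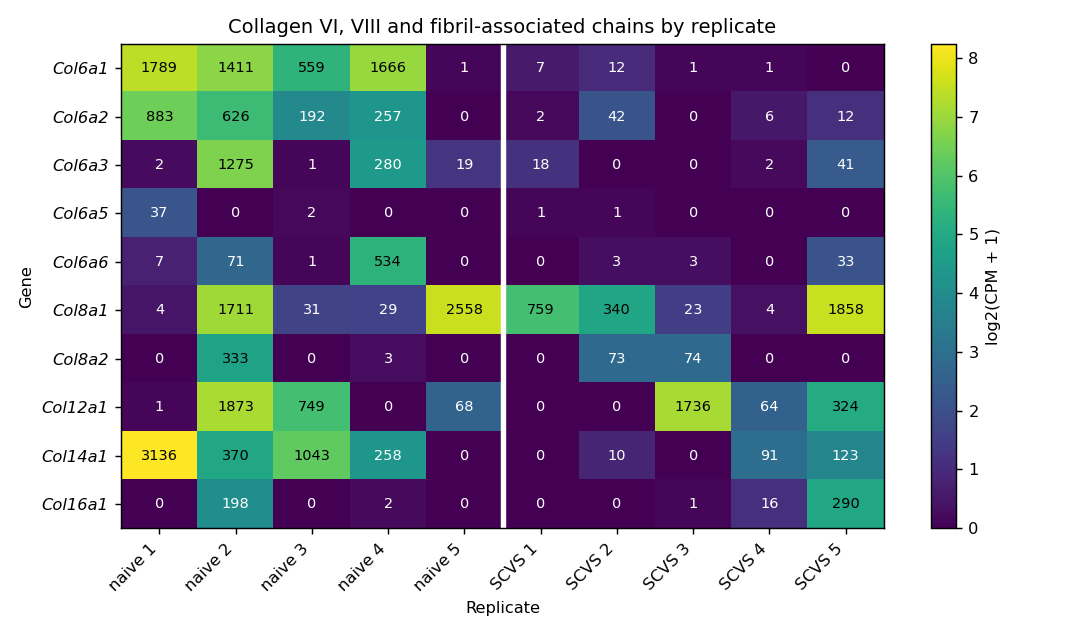
Level of the 10 collagen chains (rows) in the 5 naive and 5 SCVS replicates (columns). Colour gives log2(CPM + 1) and the number in each cell is the deposited read count. Col6a1 and Col6a2 had 192 to 1789 counts in naive 1 to 4 and at most 42 in naive 5 and the SCVS replicates.

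Col6a1 (ENSMUSG00000001119, chr10:76708792-76726044) encodes the α1 chain of collagen VI. Its naive levels were 172, 110.5, 40.0, 123 and 0.0750 CPM in replicates 1 to 5, and its SCVS levels were 0.497, 0.986, 0.0811, 0.0756 and 0 CPM. Naive 1 to 4 were all above every SCVS replicate, whereas naive 5, with 1 count, lay within the SCVS range, so the groups overlapped through that library alone. The group means were 89.0 ± 68.5 and 0.328 ± 0.416 CPM (SD, n = 5 each), and the log2 fold change was -8.15 with a standard error of 1.73 in edgeR's quasi-likelihood fit. The adjusted p was 0.964 in that fit and 5.449e-07 in DESeq2, adjusted over 14815 and 13998 genes, so the call depended on the tool. Without SCVS 2 the log2 fold change was -9.00.

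Col6a2 (ENSMUSG00000020241, chr10:76595756-76623630) encodes the α2 chain and lies on the same strand as Col6a1, 85.2 kb from it, with 2 lncRNA genes between them. Its naive levels were 84.7, 49.0, 13.7, 18.9 and 0 CPM, and its SCVS levels were 0.142, 3.45, 0, 0.453 and 1.20 CPM. As for Col6a1, naive 1 to 4 were above every SCVS replicate and naive 5 was not. The means were 33.3 ± 33.9 and 1.05 ± 1.42 CPM (SD, n = 5 each), and the log2 fold change was -5.12 with a standard error of 1.95. Without naive 1 it was -4.35 and without SCVS 2 it was -6.19. Its adjusted p was 0.999957 in edgeR and 0.0941 in DESeq2, over the same numbers of genes.

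Col6a3 (ENSMUSG00000048126, chr1:90766860-90844001) encodes the α3 chain, the largest of the classic trio. Its counts were 2, 1275, 1, 280 and 19 from naive 1 to naive 5, and 18, 0, 0, 2 and 41 from SCVS 1 to SCVS 5. Only naive 2 and naive 4 were above the SCVS range, and naive 1 and naive 3, where Col6a1 and Col6a2 were high, had at most 2 counts. The means were 24.4 ± 43.0 and 1.11 ± 1.76 CPM (SD, n = 5 each), with a log2 fold change of -4.42 and a standard error of 2.34. It was -2.29 without naive 2 and -6.06 without SCVS 5.

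Col6a6 (ENSMUSG00000043719, chr9:105689417-105828246), an alternative to the α3 chain, was read 7, 71, 1, 534 and 0 times in naive 1 to 5 and 0, 3, 3, 0 and 33 in the SCVS replicates. Most of its signal was thus in naive 4, and the groups overlapped. Its means were 9.13 ± 17.0 and 0.759 ± 1.43 CPM (SD, n = 5 each), with a log2 fold change of -3.54 that was -1.03 without naive 4 and -6.13 without SCVS 5. Col6a5 (ENSMUSG00000091345, chr9:105856070-105962463), its neighbour on the same strand at a distance of 27.8 kb, had 37 counts in naive 1, 2 in naive 3 and at most 1 elsewhere. Against the floor of 3 counts per library its SCVS mean was at least 3.00-fold lower, a bound carried by naive 1 alone, and without that library Col6a5 was not detectable in either group.

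**Figure D2:**
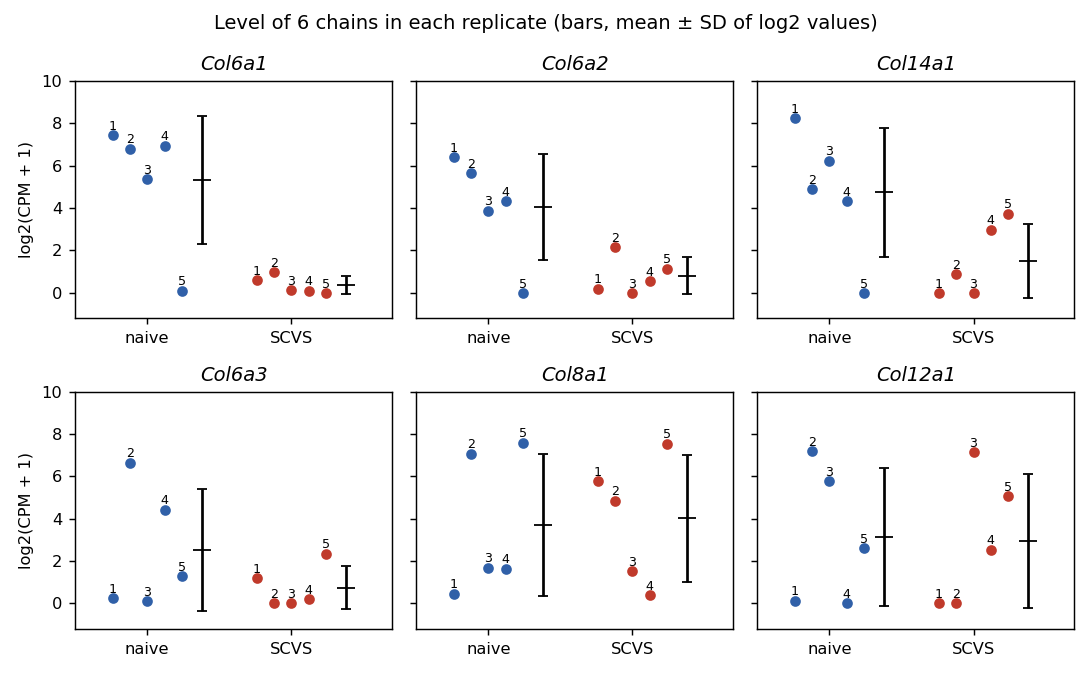
Levels of Col6a1, Col6a2, Col14a1, Col6a3, Col8a1 and Col12a1 as log2(CPM + 1) in naive and SCVS mice. Points are replicates with their number, and bars are the mean ± SD of the log2 values. For Col6a1, Col6a2 and Col14a1, naive 1 to 4 lie above all 5 SCVS points, and for Col8a1 and Col12a1 the groups are interspersed.

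The proportions of the 3 classic chains were compared per kilobase of exon, since the genes differ in length. The length was the union of all annotated exons of a gene, not that of a single transcript. It was 4393 bases for Col6a1, 8326 for Col6a2 and 11950 for Col6a3, and the shares depend on it. Without division by length Col6a1 held 66.9%, 42.6%, 74.3% and 75.6% in naive 1 to 4. Col6a1 made up 79.3%, 63.8%, 84.6% and 87.5% of the summed level per kilobase in naive 1 to 4, on 752 to 3312 counts. Col6a1 was the leading chain in each of these 4 libraries, and the share of Col6a3 ranged from 0.0326% in naive 1 to 21.2% in naive 2. In naive 5 and the SCVS replicates the 3 genes had only 1 to 54 counts together, too few to give a proportion any weight. The ratio of Col6a1 to Col6a2 in CPM, without division by length, was 2.03, 2.25, 2.91 and 6.48 in naive 1 to 4.

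**Figure D3:**
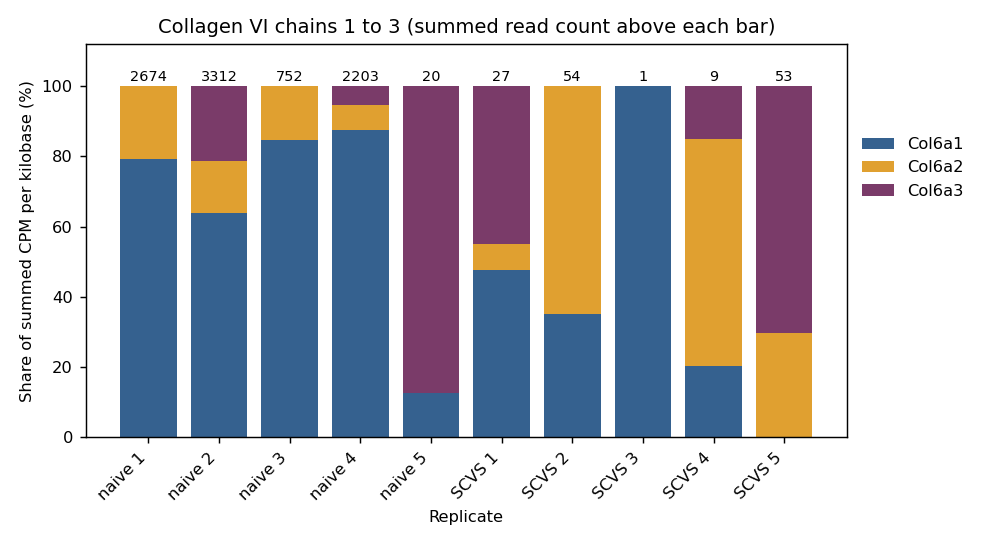
Share of Col6a1, Col6a2 and Col6a3 in their summed CPM per kilobase in each replicate, in percent, with the summed read count above each bar. In naive 1 to 4 Col6a1 holds 63.8% to 87.5%, and the other bars rest on 1 to 54 counts.

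Col14a1 (ENSMUSG00000022371, chr15:55307644-55520803) encodes the chain of collagen XIV, which coats fibrils of collagen I. Its naive levels were 301, 29.0, 74.6, 19.0 and 0 CPM, and its SCVS levels were 0, 0.822, 0, 6.88 and 12.3 CPM. Naive 1 to 4 were above every SCVS replicate, with the highest level in naive 1, the library with few lymphatic transcripts. The means were 84.7 ± 124 and 4.00 ± 5.47 CPM (SD, n = 5 each), with a log2 fold change of -4.44 and a standard error of 2.03. It was -2.94 without naive 1 and -5.51 without SCVS 5. In RefSeq the gene overlaps Gm18787 and Gm52209, and whether counting used strand is not stated.

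Col12a1 (ENSMUSG00000032332, chr9:79598987-79721141), which encodes the chain of collagen XII, a relative of collagen XIV, was read 1, 1873, 749, 0 and 68 times in naive 1 to 5 and 0, 0, 1736, 64 and 324 in the SCVS replicates. Both groups ran from no count to 1736 or more, and they overlapped throughout. The means were 41.1 ± 63.2 and 35.6 ± 60.4 CPM (SD, n = 5 each), and the log2 fold change was -0.15 with a standard error of 2.14. Its sign turned with the removal of 1 library, to 1.28 without naive 2, 0.17 without SCVS 1, 0.15 without SCVS 2 and 0.13 without SCVS 4.

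Col16a1 (ENSMUSG00000040690, chr4:130047817-130099277), the remaining fibril-associated chain, was carried by naive 2, with 198 counts, and SCVS 5, with 290 counts. The other naive replicates had at most 2 counts and the other SCVS replicates at most 16. Its mean was 3.13 ± 6.92 CPM in naive and 6.07 ± 12.9 CPM in SCVS replicates (SD, n = 5 each), and it was the only one of the 9 tested chains with the higher mean under SCVS. Without SCVS 5 the SCVS mean was 0.323 CPM, below the naive mean, without naive 2 the naive mean was 0.0368 CPM, and without SCVS 4 the SCVS mean was 7.28 CPM. The gene overlaps Gm12963 and Gm46871 in RefSeq.

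Col8a1 (ENSMUSG00000068196, chr16:57624256-57754737) encodes the α1 chain of collagen VIII and was the only chain above 3 counts in all 10 replicates. Its naive levels were 0.384, 134, 2.22, 2.14 and 192 CPM, and its SCVS levels were 53.9, 27.9, 1.87, 0.302 and 186 CPM. It was highest in naive 5, where Col6a1 and Col6a2 had at most 1 count, and in SCVS 5, and the groups overlapped. The means were 66.1 ± 90.7 and 54.0 ± 77.0 CPM (SD, n = 5 each), and the log2 fold change was -0.31 with a standard error of 1.65. It turned to 0.66 without naive 5, 0.09 without naive 2 and 0.01 without SCVS 4.

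Col8a2 (ENSMUSG00000056174, chr4:126286794-126314330), its partner chain, had 333 counts in naive 2, 73 in SCVS 2, 74 in SCVS 3 and at most 3 in any other replicate. Its means were 5.26 ± 11.6 and 2.40 ± 3.29 CPM (SD, n = 5 each), with a log2 fold change of -1.17 and a standard error of 2.65. Without naive 2 the naive mean was 0.0553 CPM, below the SCVS mean, and without SCVS 2 or SCVS 3 the SCVS mean was 1.5 CPM. Col8a1 and Col8a2 were thus often detected apart, and their log2 levels correlated over the 10 replicates with r = 0.23.

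**Figure D4:**
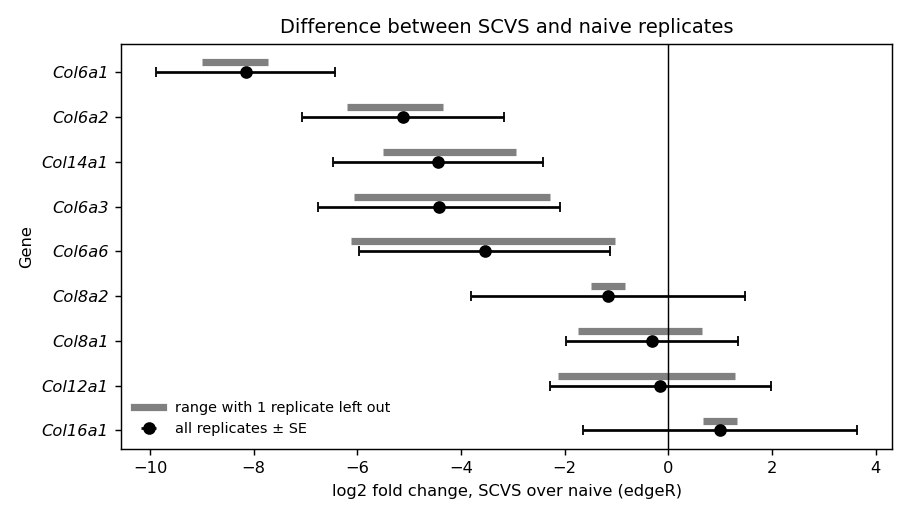
Log2 fold change of the 9 tested chains, SCVS over naive, from edgeR. Points and bars are the value ± SE with all replicates, and grey bars are the range over the fits with 1 replicate left out, which number 10 for each chain but 7 for Col8a2 and Col16a1, since these fell under the filter without the libraries that carry them. The values run from -8.15 for Col6a1 to 1.00 for Col16a1, and the grey bars of Col8a1 and Col12a1 cross 0.

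By the quasi-likelihood test of edgeR no chain reached the threshold of 0.1 on the adjusted p, and 0% of the 14815 tested genes were called lower under SCVS. At an unadjusted p under 0.05, 286 genes were higher and 174 lower, and DESeq2 called 74 higher and 40 lower. The 2 chains Col6a1 and Col6a2 were lower at an unadjusted p under 0.05, beside 1.17% of all tested genes, and the same 2 were called lower by DESeq2, beside 0.286% of the genes to which it gave an adjusted p. The mean CPM was lower under SCVS for 8 of 9 tested chains, beside 49.1% of tested genes. Over 3 counts were present in fewer SCVS than naive replicates for 5 of 9, beside 19.7%, and every SCVS replicate was below naive 1 to 4 for 3 of 9, beside 0.533%. The last count leaves out naive 5, the library where Col6a1, Col6a2 and Col14a1 had at most 1 count, so its cut follows the values of these chains. With naive 5 included none of the 3 was separated. Since the chains were chosen for this contrast, these counts describe the choice. The median log2 fold change was -3.54 over the 9 chains and -0.03 over all tested genes.

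Without naive 1 and naive 5, the naive means were 91.1 ± 44.7 CPM for Col6a1, 27.2 ± 19.0 for Col6a2, 40.2 ± 52.7 for Col6a3 and 40.9 ± 29.7 for Col14a1 (SD, n = 3). Of these 4 means, that of Col14a1 fell the most, from 84.7 CPM. More than 3 counts were present in 29 of the 50 pairs of chain and replicate in naive mice, in 23 of 50 in SCVS mice and in 20 of 30 in naive 2 to 4.

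The signal of a chain was often held by one replicate. The replicate with the highest level held a median of 63.2% of the summed CPM of a tested chain, from 31.9% for Col8a1 to 79.6% for Col6a6, and a median of 27.4% over all tested genes. Naive 2 was the highest replicate for Col6a3, Col8a2 and Col12a1 and was above the floor for 9 of the 10 chains, the most of any replicate, while SCVS 5 was above it for 7.

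Per kilobase of exon, the naive order was Col6a1 at 20.3, Col8a1 at 12.9, Col14a1 at 12.1, Col6a2 at 4.00, Col12a1 at 2.70, Col6a3 at 2.04, Col6a6 at 1.22, Col8a2 at 1.17, Col16a1 at 0.464 and Col6a5 at 0.0795 CPM per kilobase. In SCVS replicates Col8a1 led at 10.6, followed by Col12a1 at 2.34 and Col16a1 at 0.899, and Col6a1 came ninth at 0.0746 CPM per kilobase. In both orders the ranges of all neighbours overlapped, so no step between neighbours exceeded the spread over replicates.

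Over the 10 replicates, which share the group difference and the low naive 5, the chains that varied most alike were Col6a1 and Col6a2, with r = 0.96 for log2(CPM + 1) and 0.93 after centring each group. Col14a1 followed Col6a2 with r = 0.87 and Col6a1 with r = 0.81, and Col6a3 followed Col6a6 with r = 0.78. Over all 36 pairs of tested chains the median r was 0.23. Among tested genes outside the 10 chains, the 5 most like Col6a1 were Nuak1, Zbtb46, Rbms3, Slc16a3 and Adamts2, with r between 0.94 and 0.92. After centring they were Serpinb9, Rgs3, Ipo11, Klf10 and Tmem37, whose lowest naive replicate was naive 5 in every case, with at most 79 counts there.

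Other genes of collagen biology were read from lists of the remaining collagens, their enzymes, receptors and partners, and none of them was called in edgeR. The counts by direction below stand beside 7678 negative and 7137 positive log2 fold changes among all 14815 tested genes. Of 10 tested fibril-forming chains, 9 had a negative log2 fold change, with a median of -1.40, and for Col1a2, a chain of collagen I, it was -2.70. Of 8 network-forming chains 6 were negative, with a median of -0.21, and of 7 remaining collagen chains 3 were, with a median of 0.05. Of 23 enzymes and chaperones of collagen synthesis 12 were negative, with a median of -0.12.

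Adamts2, the protease that removes the amino-terminal propeptide of fibrillar procollagens, was read 152, 401, 91, 37 and 0 times in naive 1 to 5 and 1 time in all SCVS replicates together. Like Col6a1 it was present in naive 1 to 4 and near absent in naive 5, and DESeq2 gave it an adjusted p of 0.00721, against 0.964 in edgeR. Of 10 collagen receptors 7 had a positive log2 fold change, beside 7137 of the 14815 tested genes, with a median of 1.28. Antxr2, an anthrax toxin receptor that binds collagen VI, was read 1, 12, 2, 0 and 1 times in naive 1 to 5 and 714, 286, 460, 335 and 65 in the SCVS replicates, and the groups did not overlap. Its log2 fold change was 6.76 with a standard error of 1.62, and its adjusted p was 0.964 in edgeR and 4.841e-07 in DESeq2. Of 10 matrix partners 8 were negative, with a median of -1.03, among them the matrilin Matn2 at -2.84.

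Markers of blood endothelium and of stromal cells were present in the sorted cells of both groups. The 5 blood endothelial markers summed to 292 to 5729 CPM in naive replicates, with a median of 5678. In SCVS replicates they summed to 2255 to 7550 CPM, with a median of 3664, so the groups overlapped. For the 7 lymphatic markers the sums were 60.8 to 2747 CPM in naive and 439 to 3074 CPM in SCVS replicates, with medians of 1019 and 1378 CPM. The summed level of 8 fibroblast markers was 176 to 1170 CPM in naive replicates, with a median of 897, and 175 to 1784 CPM in SCVS replicates, with a median of 230, and 3 to 7 of them were above the floor in a naive and 2 to 7 in an SCVS replicate. It was high in naive 1 to 4 and low in naive 5, as collagen VI was. It was highest of all in SCVS 5. There the 5 collagen VI chains summed to 8.61 CPM, the most of any SCVS replicate, against 54.0 to 265 CPM in naive 1 to 4. In SCVS 3 the fibroblast sum was 685 CPM, above the 563 CPM of naive 4. The collagen VI chains summed to 0.325 CPM in SCVS 3 and to 202 CPM in naive 4. The 8 markers of mural cells (pericytes and smooth muscle) summed to 780 to 7719 CPM in naive and 396 to 5944 CPM in SCVS replicates. All 8 had a negative log2 fold change, beside 7678 of the 14815 tested genes. The 6 leukocyte markers summed to 0.576 to 555 CPM in naive and 133 to 4070 CPM in SCVS replicates, and the 3 erythroid markers to 4.03 to 42.8 and 6.42 to 4336 CPM. Each SCVS maximum was held by 1 library, the leukocyte one by SCVS 4 (next 775 CPM) and the erythroid one by SCVS 5 (next 124 CPM). All 6 leukocyte and all 3 erythroid markers had a positive log2 fold change, beside 7137 of the 14815 tested genes. The part of all these cells in the collagen levels was not tested.

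**Figure D5:**
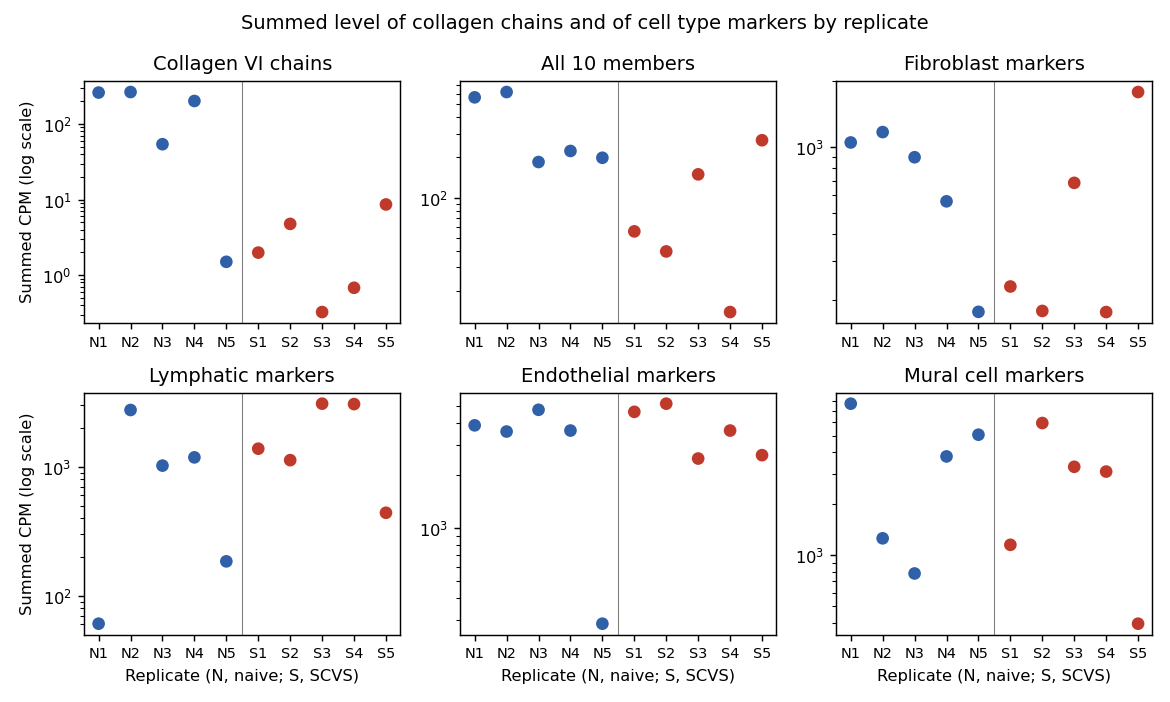
Summed CPM, on log axes, of the collagen VI chains, of all 10 chains and of markers of fibroblasts, lymphatic endothelium, all endothelium and mural cells in each replicate (N, naive, and S, SCVS). Naive 5 is low for collagen VI and endothelial markers, naive 1 is lowest for lymphatic markers at 60.8 CPM, and SCVS 5 is highest for fibroblast markers at 1784 CPM.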

How the data were processed

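RNA from sorted meningeal LECs was sequenced in 5 naive and 5 SCVS replicates. The authors deposited raw read counts per gene. Per the labels' processing notes, cutadapt (version 1.9.1), HISAT2 (version 2.0.1) and HTSeq (version 0.6.1) were used with GRCm38, whereas the methods name mm9. Of the 55401 identifiers 58.8% were found in the mm9 annotation GENCODE M1, so coordinates and promoters were taken from RefSeq (GRCm38.p6), and exon lengths from GENCODE M1. An exon length was the union of all annotated exons of a gene. The annotation used for counting and the use of strand are not given in the sources used here. CPM was computed by column total. Genes over 5 counts in 3 or more replicates were tested with edgeR (version 4.0.16, TMM, quasi-likelihood) at a Benjamini-Hochberg adjusted p under 0.1. DESeq2 (version 1.42.0), limma (version 3.58.1), other filters and scalings, a replicate block and the removal of replicates were alternatives. Scripts were tested on simulated data. The chains and gene lists were chosen with earlier results of these data known. Genes outside the 10 were named as the lowest p in each direction of a list, or by likeness to Col6a1. Likeness was the correlation of log2(CPM + 1). Amplified reads are not independent molecules, so floors cover counting error only. Cohorts could not be compared, since their replicates were not named.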

Additional observations from a re-analysis of the deposited data

Results flagged for a closer look

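In 10 of the 20 groups of 5 values (10 chains in 2 groups), the highest replicate stood far from the others by Dixon's criterion. Chance gives about 1 in 20 for normally distributed values, which CPM values with many zeros are not. Over all tested genes, the highest or the lowest replicate met the criterion in 22.1% of the 29363 groups with a replicate over 3 counts. That share leaves out Col6a5, which was not tested. So nothing is read from the number of chains that met it. In naive mice these were Col6a3 in naive 2 at 99.8 CPM (next 20.6), Col6a5 in naive 1 at 3.55 CPM, Col6a6 in naive 4 at 39.3 CPM, Col8a2 in naive 2 at 26.1 CPM, Col14a1 in naive 1 at 301 CPM (next 74.6) and Col16a1 in naive 2 at 15.5 CPM. In SCVS mice they were Col6a6 in replicate 5 at 3.31 CPM, Col8a1 in replicate 5 at 186 CPM (next 53.9), Col12a1 in replicate 3 at 141 CPM (next 32.4) and Col16a1 in replicate 5 at 29.0 CPM. They touched 8 of the 10 chains, not Col6a1 or Col6a2. Chains of 1 replicate share that library, so these values are not independent.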

How the results depend on the processing

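Whether any gene was called depended on the tool. Against 0 of the tested genes in edgeR's quasi-likelihood test, DESeq2 called 114, edgeR's likelihood ratio test 38 and limma with voom and quality weights 3, and DESeq2 called 235 without naive 1 and naive 5. With single replicates left out, the count was 0 in each edgeR fit. In DESeq2 it was 116, 129, 114, 169 and 214 without naive 1 to 5 in turn, and 116, 116, 122, 98 and 121 without SCVS 1 to 5. Of the chains, DESeq2 called 2 (Col6a1 and Col6a2), with or without naive 1 and naive 5, and the likelihood ratio test called 1 (Col6a1). With single replicates left out, 0 chains were called in edgeR and 1 to 2 in DESeq2, where Col6a1 was called in all 10 fits and Col6a2 only without naive 5 or without SCVS 2. The cause was not tested. The DESeq2 fits without replicates and the removal of naive 1 and naive 5 together were chosen after seeing the data.

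Of 255 alternative log2 fold changes of the chains, 220 kept direction and side of the threshold, 17 passed it and 18 reversed, all for Col8a1 or Col12a1. Col8a2 and Col16a1 fell under the filter and were not fitted without naive 2, SCVS 2 or SCVS 3 and without naive 2, SCVS 4 or SCVS 5, respectively, and the order of their group means turned without naive 2 for Col8a2 and without SCVS 5 for Col16a1. Col8a1 reversed to 0.60 with limma and, without naive 1 and naive 5, to 0.25 in edgeR and 0.32 in DESeq2, and with single replicates left out it ran from -1.75 to 0.66 in edgeR and from -1.84 to 0.73 in DESeq2, with 0.00058 without naive 2. Col12a1 ran from -2.13 to 1.28 in edgeR and from -2.04 to 1.30 in DESeq2, where it was also above 0 without naive 3 (0.0041), SCVS 1 (0.21), SCVS 2 (0.20) and SCVS 4 (0.17). With the replicate number as a block, Col12a1 reversed to 1.04 and 0 chains were called. Same-numbered replicates were pools of different animals, and their deviations correlated by -0.017 to 0.149, so the numbers were not read as a pairing. Col6a1 stayed between -9.11 and -7.72 with single replicates left out, and Col6a2 between -6.20 and -4.34. The median share of Col6a1 over naive 1 to 4 was 82.0% per kilobase and 70.6% without division by length, and with naive 5, which had 20 counts, 79.3% and 66.9%.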
